A study of Homo sapiens with 6 samples.

Results

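The genes described here encode enzymes that oxidise, reduce and conjugate foreign compounds, steroids, retinoids, alcohols and aldehydes. They were taken from the deposited count table as every protein-coding GENCODE gene whose symbol places it among the flavin-containing monooxygenases (FMO), the cytochromes P450 (CYP), the alcohol dehydrogenases (ADH), the aldehyde dehydrogenases (ALDH), the aldo-keto reductases of family 1 (AKR1), the cytosolic and microsomal glutathione transferases (GST and MGST), the UDP-glucuronosyltransferases (UGT), the sulfotransferases (SULT) and the arylamine N-acetyltransferases (NAT). CYP51A1, an enzyme of sterol synthesis, was left out by the same rule. The rule found 150 genes among 60675 entries, and 61 of the 150 had enough reads to be tested.

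RNA-seq libraries were compared from MRC-5 cells, a fibroblast line established from human fetal lung. In 3 libraries the cells were quiescent, meaning arrested outside the cell cycle, after contact inhibition for 9 days. Young cells, which the labels give as the control with no other perturbation, supplied 3 more. All 6 libraries were made at population doubling 32.

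FMO and CYP enzymes add oxygen to their substrates, the former through a bound flavin and the latter through a heme that most of them reduce with electrons from the flavoprotein POR. ADH enzymes turn alcohols into aldehydes, ALDH enzymes turn aldehydes into acids, and AKR1 enzymes reduce aldehydes and ketones. GST, UGT, SULT and NAT enzymes then attach glutathione, glucuronic acid, sulfate or an acetyl group. Many of these enzymes are best known from liver, while FMO2 is known as the lung form of its family.

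Total counts ranged from 26860981 to 29433764 in the young and from 18661639 to 22546237 in the quiescent libraries. Levels are given as CPM, read counts brought to a common library size with TMM factors. Where genes are set side by side they are given as RPKM, the same value per kilobase of exon. The young libraries had been made for a previous series, and for every difference below the effect of growth state and that of the library set cannot be told apart. The labels name no separate cultures within a group, so the p-values rest on a spread between libraries that may be technical only. All 9 fibroblast markers were present at a mean of at least 1 CPM, and their summed level was 25100 to 25700 CPM in young and 14600 to 15000 CPM in quiescent libraries. Most of that sum came from COL1A1 and COL1A2, which were 2.26-fold and 2.13-fold lower in quiescent cells. THY1 was 3.76-fold, COL3A1 2-fold, PDGFRA 1.24-fold and DCN 1.1-fold lower. LUM was 2.34-fold and PDGFRB 1.43-fold higher, and VIM was not called (edgeR adjusted p = 0.83). None of the 6 hepatocyte markers reached 1 CPM (summed level 0.0718 to 0.259 CPM in young and 0.0969 to 0.294 CPM in quiescent libraries, with TTR and HNF4A at 0). Of the 9 lung epithelial markers 3 reached it, the keratins KRT8, KRT18 and KRT19. Their list summed to 54.8 to 56.7 CPM in young and 27.8 to 28.8 CPM in quiescent libraries, with SFTPC, SCGB1A1 and NKX2-1 at 0. Of the 5 endothelial markers 3 reached 1 CPM, most of it from TEK, and the list summed to 75.6 to 86.4 CPM in young and 94.7 to 96.9 CPM in quiescent libraries. VWF rose from 0.803 ± 0.209 to 3.27 ± 0.277 CPM and KDR from 0.394 ± 0.236 to 3.1 ± 0.112 CPM (SD, n = 3 per group, edgeR adjusted p = 1.85e-09 and 1.94e-10), while PECAM1 and CDH5 stayed under 1 CPM. Of the 5 leukocyte markers only CD14 reached it, and the list summed to 0.905 to 1.37 CPM and 2.37 to 3.33 CPM, respectively, with CD3E at 0. The part of these marker levels in the differences below was not tested. In bulk RNA, fewer cells of a type and less RNA per cell cannot be told apart.

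Oxidising enzymes (FMO, CYP, ADH and ALDH) made up most of the changes of at least 2-fold, but also most of the tested genes. In edgeR's quasi-likelihood test, with Benjamini-Hochberg adjustment over all 15568 tested genes, 32 of the 61 tested enzyme genes were higher in quiescent cells at adjusted p under 0.05 (52.5%), 15 were lower (24.6%) and 14 did not pass. Over all tested genes, 34.8% were higher and 36.3% were lower. At a change of at least 2-fold, 17 enzyme genes were higher (27.9%) against 8.98% of all genes, and 3 were lower (4.92%) against 8.33%. The median log2 fold change of the tested enzyme genes was 0.36, and that of all tested genes was 0.00.

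The filter on low counts has a part in these counts. It asked for about 0.405 CPM in any 3 libraries. Of the enzyme genes, 10 reached that in all 3 quiescent libraries but not in all 3 young ones, which favours genes higher in quiescent cells. They include 8 of the 17 that were at least 2-fold higher, namely FMO4, SULT1C2, SULT1C4, ADH1A, ALDH8A1, CYP3A7, CYP27B1 and CYP2A6. Of these, SULT1C2, ADH1A, ALDH8A1, CYP3A7 and CYP2A6 reached the cutoff in no young library, so they passed through the quiescent libraries alone. FMO4, SULT1C4 and CYP27B1 also reached it in 2 young libraries. The other 9 of the 17 were over the cutoff in all 6 libraries. GSTM5 was over it in all 3 young libraries and in 2 quiescent ones. Among the 51 enzyme genes with a mean over all 6 libraries of at least 1 CPM, 26 were higher (51%), 14 were lower (27.5%), 12 were at least 2-fold higher (23.5%) and the median was 0.12. Of 13455 genes at that level, 35% were higher, 38.9% were lower, 6.61% were at least 2-fold higher and the median was -0.02. A mean over all 6 libraries still admits genes through their quiescent values, as for CYP3A7, SULT1C2 and FMO4. It therefore does not remove the selection by the filter. The 3 quiescent and the 3 young values did not overlap in 47 of the 61 enzyme genes (77%), as in 73.5% of all tested genes. The direction of small changes depends on scaling: without TMM factors, by library size alone, the median of all genes moved to 0.18, and 38 enzyme genes were higher and 10 lower. That is 79.2% of calls in the higher direction, against 68.1% with TMM factors. The shares of all tested genes called under that scaling are not given here, so these counts have no background beside them.

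**Figure D1:**
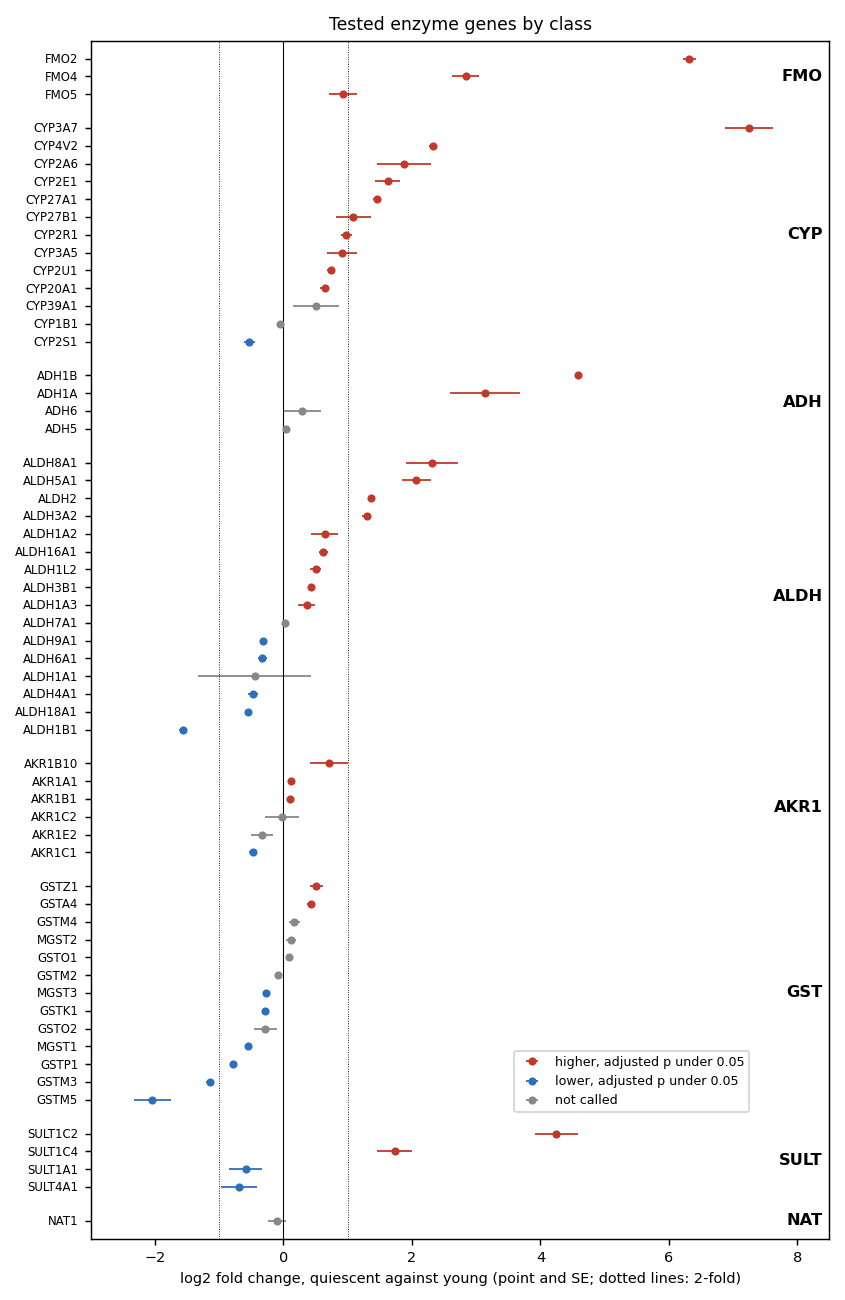
Log2 fold change of the tested enzyme genes reported here, quiescent against young, with its standard error (SE), grouped by enzyme class. FMO2, FMO4, FMO5 and 10 of 13 CYP genes lie on the higher side in red, while 6 of 13 glutathione transferases lie on the lower side in blue; the point for CYP3A7 rests on 2 reads in the young group and 294 in the quiescent one.

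FMO2, FMO4 and FMO5 were higher in quiescent cells, FMO2 by far the most of them. FMO2 stood at 0.787, 0.702 and 0.825 CPM in the young libraries and at 66.0, 58.1 and 61.8 CPM in the quiescent ones. FMO2 was 79.7-fold higher (log2 fold change 6.32 ± 0.10 SE, edgeR adjusted p = 1.28e-25) and went from 0.161 to 12.9 RPKM. FMO4 stood at 0.787, 0.592 and 0.395 CPM against 4.99, 3.94 and 3.73 CPM, a rise of 2.84 ± 0.21 in log2 (edgeR adjusted p = 9.66e-12). In neither gene did the groups overlap.

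FMO5, which unlike the others of the family inserts oxygen into ketones to give esters, changed less. It stood at 0.787, 0.887 and 1.08 CPM in young and at 1.65, 1.72 and 1.92 CPM in quiescent libraries, a log2 fold change of 0.93 ± 0.22 (edgeR adjusted p = 0.000498). FMO1, the fetal liver form, had too few reads to be tested. It had 0, 1 and 2 reads in the young libraries and 4, 4 and 5 in the quiescent ones, and the exact 95% interval of the ratio of its summed, scaled reads ran from 1.49 to 29.6 (counting error only). About 5.04% of the exon bases of FMO2 are also covered by a gene on the opposite strand, and the kit does not mark strand, so reads there cannot be assigned to one strand.

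FMO2, FMO1 and FMO4 lie in one cluster on GRCh38 chromosome 1, FMO2 from 171185208 to 171211230 and FMO4 from 171314208 to 171342084, and FMO5 lies apart on the same chromosome from 147175351 to 147243050. The tested genes that flank the cluster moved far less than FMO2 and FMO4 inside it. Before the cluster, GORAB had a log2 fold change of 0.38 ± 0.07 and PRRX1, a mesenchymal homeobox factor, one of 0.53 ± 0.04. After it, PRRC2C had -0.12 ± 0.14 and VAMP4, a protein of vesicle fusion, 0.25 ± 0.04. PRRX1, GORAB and VAMP4 were called higher and PRRC2C was not called (edgeR adjusted p = 0.496).

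The ADH genes also form one cluster, on chromosome 4 from 99070978 to 99435737, and there the change was held by neighbouring genes of one subclass. ADH1B and ADH1A, which belong to the class I enzymes that oxidise ethanol and retinol, were higher, whereas ADH5 and ADH6 in the same cluster were not called. ADH1B stood at 7.40, 7.87 and 8.15 CPM in young and at 192, 188 and 185 CPM in quiescent libraries. It was 24.1-fold higher (log2 fold change 4.59 ± 0.05, edgeR adjusted p = 6.84e-28), and the groups lay far apart. ADH1A was near the limit of detection in young cells, with 0.197, 0 and 0.0359 CPM, and stood at 0.920, 0.587 and 0.605 CPM in quiescent cells (log2 fold change 3.14 ± 0.55, edgeR adjusted p = 2.15e-05). Its fold rests on few young reads, and without the young library at 0.197 CPM the log2 fold change was 4.92 (adjusted p = 4.92e-06). About 11.7% of its exon bases are covered on the opposite strand. ADH1C, the remaining class I gene, was not tested, with 3, 5 and 2 reads in young and 6, 9 and 5 in quiescent libraries. Since class I genes are close copies whose reads the counting may divide, their counts were also summed, and the sum rose from 8.01 ± 0.275 to 189 ± 3.67 CPM (log2 fold change 4.56 ± 0.05).

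ADH5, the enzyme that clears formaldehyde and nitrosoglutathione in nearly all cells, was the most abundant ADH gene per length in both groups. It stood at 212, 222 and 234 CPM in young and at 230, 232 and 228 CPM in quiescent libraries, and these values overlap (log2 fold change 0.04 ± 0.04, edgeR adjusted p = 0.335). Without the young library at 234 CPM it was called, at 0.09 (adjusted p = 0.0164). ADH1B rose to 17.5 RPKM in quiescent cells, where ADH5 stood at 47.3 RPKM. ADH6 stayed under 1 CPM in every library (log2 fold change 0.29 ± 0.29, edgeR adjusted p = 0.376). ADH4 had at most 3 reads in a library and ADH7 was listed at 0. The flanking genes EIF4E, METAP1, TRMT10A and LAMTOR3 had log2 fold changes of -0.17, -0.48, 0.03 and 0.13.

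**Figure D2:**
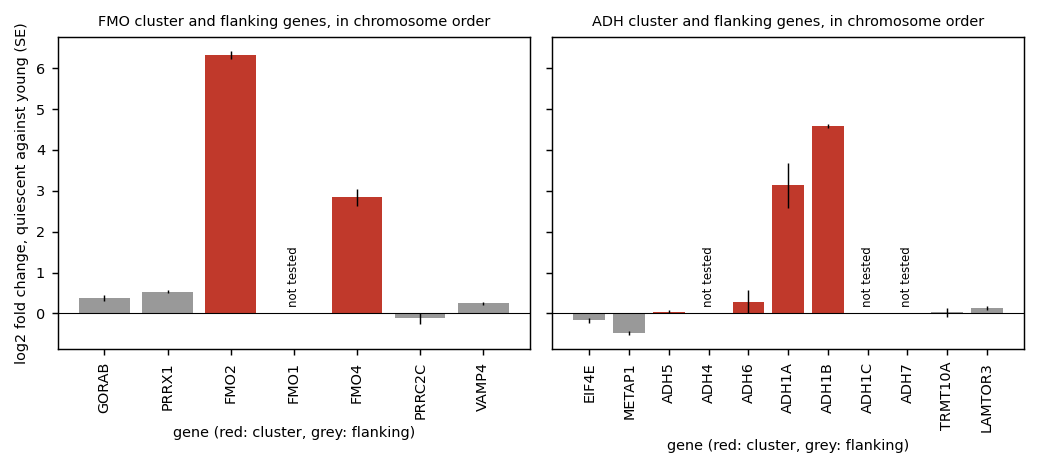
Log2 fold change (bars, with SE) of genes of the FMO and the ADH cluster in red and of the tested genes on either side in grey, in chromosome order and not to genomic scale. Inside the clusters FMO2 reaches 6.32 and ADH1B reaches 4.59, while no flanking gene exceeds 0.53.

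Most CYP genes had few or no reads in these fibroblasts. Of 55 genes, 16 were listed at 0 and 26 had at most 48 reads in all. Of the 13 tested, 10 were higher, CYP2S1 was lower, and CYP1B1 and CYP39A1 were not called. The 10 are 76.9% of the 13, beside 34.8% of all tested genes, but 4 of the 13 passed the low-count filter through the quiescent libraries alone, among them CYP3A7, CYP27B1 and CYP2A6, so the count is no measure of the class. The summed level of the 13 went from 33.7 ± 0.99 to 57.7 ± 0.466 RPKM. Most of that difference lay in CYP27A1, CYP4V2, CYP2U1 and CYP20A1.

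CYP27A1, the mitochondrial enzyme that hydroxylates the side chain of cholesterol, had the highest mean level of the class per length over all 6 libraries. It stood at 21.2, 22.4 and 21.7 CPM in young and at 61.6, 59.0 and 58.4 CPM in quiescent libraries, 2.74-fold higher (log2 fold change 1.45 ± 0.05, edgeR adjusted p = 8.19e-19). CYP4V2, a fatty acid hydroxylase whose loss causes a crystalline retinal dystrophy, stood at 11.9, 13.6 and 12 CPM against 60.3, 66.4 and 62.4 CPM. It was 5.04-fold higher (log2 fold change 2.33 ± 0.06, edgeR adjusted p = 1.83e-21), and neither gene overlapped between groups. CYP2U1, which also hydroxylates fatty acids, rose by 0.74 ± 0.06 in log2, and CYP20A1, a P450 with no settled substrate, rose by 0.64 ± 0.07. CYP2S1 stood at 13.6, 15.9 and 13.3 CPM in young and 9.93, 8.93 and 10.8 CPM in quiescent libraries, and fell by 0.53 on the log2 scale (edgeR adjusted p = 6.54e-06).

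Drug-metabolising P450s known from liver appeared in quiescent cells at low levels. CYP3A7, the form of fetal liver, had 2, 0 and 0 reads in the young libraries and 96, 109 and 89 in the quiescent ones. The exact 95% interval of the ratio ran from 50.4 to 1520 (counting error only). The fitted log2 fold change of 7.25 depends on the prior count and is no bound (edgeR adjusted p = 2.76e-15). It was 9.77 without the young library that holds both young reads. About 41.7% of the exon bases of CYP3A7 are shared with a read-through gene and a pseudogene on the same strand, so its count is uncertain, and the read-through gene itself had 2, 5 and 0 reads in quiescent and none in young libraries. CYP3A5 rose by 0.91 ± 0.24 in log2 (edgeR adjusted p = 0.00138), CYP3A4 had a single read in each of 2 quiescent libraries, and the summed CYP3A genes rose from 0.836 ± 0.185 to 6.08 ± 0.19 CPM. CYP2E1, which oxidises ethanol, stood at 1.26, 0.702 and 1.18 CPM in young and at 3.54, 2.68 and 3.53 CPM in quiescent libraries (log2 fold change 1.62 ± 0.20, edgeR adjusted p = 1.22e-07). About 23.9% of its exon bases are covered by genes on the opposite strand. CYP2A6, the enzyme that clears nicotine, stood at 0.197, 0.148 and 0.108 CPM against 0.436, 0.629 and 0.605 CPM (log2 fold change 1.87 ± 0.42, edgeR adjusted p = 0.000321).

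Genes of vitamin D activation were higher, both at low levels. CYP2R1, which makes calcidiol from vitamin D, stood at 5.82, 6.40 and 5.53 CPM in young and at 11.6, 11.6 and 11.7 CPM in quiescent libraries (log2 fold change 0.98 ± 0.09, edgeR adjusted p = 3.61e-10). CYP27B1, which makes the active hormone from calcidiol, stood at 0.590, 0.555 and 0.395 CPM against 1.21, 0.923 and 1.16 CPM (log2 fold change 1.09 ± 0.28, edgeR adjusted p = 0.00125). CYP24A1, which inactivates the hormone, was listed at 0 in all 6 libraries.

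CYP1B1 and CYP1A1 are classical targets of the aryl hydrocarbon receptor. CYP1B1 was abundant and overlapped between groups, at 63.8, 62.4 and 62.7 CPM in young and 60.4, 59.3 and 62.9 CPM in quiescent libraries. Its log2 fold change was -0.05 ± 0.04 (edgeR adjusted p = 0.296), and it turned to 0.13 (adjusted p = 0.0129) when libraries were scaled by size alone. CYP1A1 had 4, 0 and 3 reads in young and 6, 6 and 4 in quiescent libraries and was not tested; the exact 95% interval of the ratio of its summed, scaled reads ran from 1.11 to 8.2 (counting error only). CYP39A1, an oxysterol hydroxylase, had a log2 fold change of 0.51 ± 0.36 (edgeR adjusted p = 0.212). CYP19A1, the aromatase that makes oestrogens, had 1, 0 and 1 reads in young and 11, 9 and 9 in quiescent libraries, with a 95% interval of the ratio from 4.58 to 157, but also missed the filter.

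**Figure D3:**
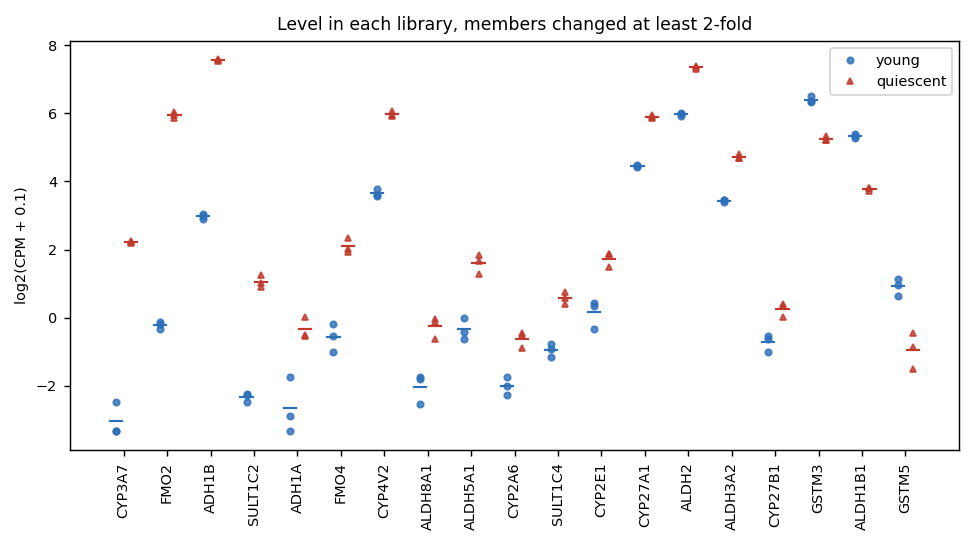
Level in each library, as log2(CPM + 0.1), of 19 of the 20 enzyme genes that changed at least 2-fold, with young libraries as blue circles, quiescent libraries as red triangles and the group mean as a bar. The groups do not overlap in any of the 19, which were chosen for their change. They also do not overlap in 73.5% of all tested genes. FMO2 goes from below 1 CPM to about the CPM of CYP4V2 and CYP27A1, and GSTM3, ALDH1B1 and GSTM5 go the other way. Per length, FMO2 stood at 12.9, CYP4V2 at 6.43 and CYP27A1 at 20 RPKM in quiescent cells.

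The ALDH genes moved in both directions, and their summed level was 126 ± 3.41 RPKM in young and 120 ± 1.89 RPKM in quiescent cells. Of 16 tested genes, 9 were higher (56.2%, beside 34.8% of all tested genes) and 5 lower (31.2%, beside 36.3%). The median log2 fold change was 0.40. ALDH8A1 is among the 9 and passed the low-count filter through the quiescent libraries alone. ALDH2, the mitochondrial enzyme that clears acetaldehyde, stood at 61.1, 62.9 and 64.4 CPM in young and at 158, 166 and 164 CPM in quiescent libraries. It was 2.59-fold higher (log2 fold change 1.37 ± 0.04, edgeR adjusted p = 4.66e-20). ALDH1B1, its close mitochondrial relative, went the other way, from 40.1, 41.6 and 39.0 CPM to 13.0, 13.8 and 14 CPM. It was 2.96-fold lower (log2 fold change -1.57 ± 0.06, edgeR adjusted p = 6.63e-18). Per length, ALDH1B1 stood at 12.8 RPKM and ALDH2 at 6.46 RPKM in young cells, and at 4.31 and 16.8 RPKM in quiescent ones. Their order per length thus changed, but by CPM ALDH2 was the higher in both groups. The order per length depends on the merged exon lengths, 3155 bases for ALDH1B1 and 9720 for ALDH2.

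Of the other ALDH genes, 3 more were at least 2-fold higher. ALDH3A2, the fatty aldehyde dehydrogenase, stood at 10.8, 10.4 and 10.8 CPM in young and at 25.5, 25.8 and 27.7 CPM in quiescent libraries (log2 fold change 1.30 ± 0.07, edgeR adjusted p = 2.71e-15). ALDH5A1, which disposes of succinic semialdehyde from GABA, stood at 0.905, 0.555 and 0.646 CPM against 3.49, 2.35 and 3.07 CPM (log2 fold change 2.07 ± 0.22, edgeR adjusted p = 7.9e-09). ALDH8A1, an enzyme of the kynurenine pathway, stood at 0.197, 0.185 and 0.0718 CPM against 0.824, 0.881 and 0.554 CPM (log2 fold change 2.31 ± 0.41, edgeR adjusted p = 1.83e-05). Smaller rises were measured for ALDH16A1 (0.62 ± 0.07), the mitochondrial folate enzyme ALDH1L2 (0.50 ± 0.08) and ALDH3B1 (0.43 ± 0.05). About 7% of the exon bases of ALDH2 are shared with another gene on its strand.

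ALDH18A1, which makes the precursor of proline and was the most abundant ALDH gene per length, fell by 0.55 on the log2 scale. It stood at 144, 155 and 144 CPM in young and at 98.2, 104 and 101 CPM in quiescent libraries (SE 0.04, edgeR adjusted p = 1.24e-11). ALDH4A1, which works in proline breakdown, fell by 0.48 (SE 0.08), ALDH9A1, of carnitine synthesis, by 0.32 (SE 0.04) and ALDH6A1, of valine breakdown, by 0.33 (SE 0.07). The call of ALDH6A1 was lost with library size alone (log2 fold change -0.15, adjusted p = 0.0736). ALDH4A1 shares 41.1% of its exon bases with another gene on its strand, which makes its count uncertain. ALDH7A1, of lysine breakdown, overlapped between groups at 48.4 to 53.8 CPM and 51.0 to 54.3 CPM (log2 fold change 0.03 ± 0.05, edgeR adjusted p = 0.582).

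The retinal dehydrogenases, which make retinoic acid, were scarce and showed small differences. ALDH1A3 stood at 3.34, 3.25 and 3.70 CPM in young and 3.97, 5.03 and 4.18 CPM in quiescent libraries (log2 fold change 0.36 ± 0.13, edgeR adjusted p = 0.0172). ALDH1A2 stood at 1.06, 1.07 and 1 CPM against 1.89, 1.64 and 1.36 CPM (log2 fold change 0.64 ± 0.21, edgeR adjusted p = 0.0104). Both calls were lost with DESeq2 (adjusted p = 0.0732 and 0.0572) and without 1 of the quiescent libraries (adjusted p = 0.159 without library 2 for ALDH1A3 and 0.0648 without library 1 for ALDH1A2). About 27.5% of the exon bases of ALDH1A3 are covered on the opposite strand. ALDH1A1 was uneven among the young libraries, at 1.34, 0.739 and 0.0718 CPM, against 0.339, 0.671 and 0.504 CPM in the quiescent ones, and was not called (log2 fold change -0.45 ± 0.88, edgeR adjusted p = 0.679). Without the young library at 0.0718 CPM it was called lower, at -0.99 (adjusted p = 0.0129). The CYP26 enzymes that clear retinoic acid were not tested. CYP26B1 had 6, 11 and 9 reads in young and 9, 6 and 7 in quiescent libraries, CYP26C1 had 7 and 2 reads in all, and CYP26A1 had 2 and 3.

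The AKR1 genes differed little. Their summed level was 103 ± 4.08 RPKM in young and 109 ± 1.26 RPKM in quiescent cells, and none of the 6 tested changed 2-fold. AKR1B1, the aldose reductase that turns glucose into sorbitol, made up most of that level. It stood at 259, 261 and 279 CPM in young and at 279, 288 and 288 CPM in quiescent libraries, where the groups touch, and its log2 fold change of 0.10 ± 0.04 (edgeR adjusted p = 0.0323) was no longer called without any filter on low counts (adjusted p = 0.149). AKR1A1, the general aldehyde reductase, had 0.11 ± 0.04 (edgeR adjusted p = 0.0229), a call lost with DESeq2 (adjusted p = 0.0547), and AKR1B10 had 0.71 ± 0.30 (edgeR adjusted p = 0.035), also lost with DESeq2 (adjusted p = 0.123). These calls also rested on single libraries. That of AKR1A1 was lost without quiescent library 1 (adjusted p = 0.077) or the young library at 78.5 CPM (0.0572) or 78.7 CPM (0.0624). That of AKR1B1 was lost without quiescent library 2 (0.114) or 3 (0.069) or the young library at 259 CPM (0.0865) or 261 CPM (0.0885), and that of AKR1B10 without quiescent library 2 (0.0567) or 3 (0.175) or the young library at 0.551 CPM (0.0671) or 0.407 CPM (0.145). AKR1C1, which inactivates progesterone, stood at 23.9, 25.6 and 25.9 CPM in young and 16.9, 18.2 and 19 CPM in quiescent libraries and fell by 0.48 on the log2 scale (SE 0.06, edgeR adjusted p = 2.69e-07). Its near-identical relative AKR1C2 had -0.02 ± 0.26 (edgeR adjusted p = 0.944). Because reads of the AKR1C genes may be divided between them, their summed count was also tested, and it fell by 0.44 (SE 0.06, edgeR adjusted p = 3.8e-07). AKR1E2 was not called (-0.34 ± 0.17, edgeR adjusted p = 0.0765).

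The glutathione transferases held the highest summed level of all classes. Their summed level went from 406 ± 19.4 to 308 ± 6.15 RPKM. Of 13 tested genes, 6 were lower (46.2%, beside 36.3% of all tested genes), 2 higher (15.4%, beside 34.8%) and 5 not called. The median log2 fold change was -0.27. GSTP1, the pi-class enzyme that many cultured cells express at a high level, stood at 367, 360 and 384 CPM in young and at 205, 218 and 224 CPM in quiescent libraries. It was 1.72-fold lower (log2 fold change -0.78 ± 0.04, edgeR adjusted p = 7.93e-15), and it was the most abundant enzyme gene per length in both groups, at 194 and 113 RPKM. MGST1, a membrane-bound transferase and peroxidase, stood at 283, 278 and 308 CPM against 191, 201 and 200 CPM and fell by 0.55 (SE 0.04, edgeR adjusted p = 1.43e-11).

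The mu class held the 2 glutathione transferases that were at least 2-fold lower. GSTM3 stood at 80.1, 82.7 and 91.5 CPM in young and at 37.0, 39.9 and 37.3 CPM in quiescent libraries, 2.22-fold lower (log2 fold change -1.15 ± 0.05, edgeR adjusted p = 4.49e-16). GSTM5 stood at 1.46, 1.85 and 2.12 CPM against 0.630, 0.252 and 0.454 CPM (log2 fold change -2.04 ± 0.29, edgeR adjusted p = 6.37e-07). GSTM2, at 47.5 to 50.6 CPM in young and 45.7 to 47.8 CPM in quiescent libraries, overlapped between groups and was not called (edgeR adjusted p = 0.142), and GSTM4 was not called either (0.17 ± 0.08, edgeR adjusted p = 0.066), although it was called higher without quiescent library 1 or 3 or without the young library at 15.5 or 15.3 CPM (adjusted p = 0.0482, 0.0477, 0.0299 and 0.0264). GSTM1 had 3 reads in young and none in quiescent libraries. The summed mu-class genes, which are close copies in one cluster, fell by 0.57 (SE 0.04, edgeR adjusted p = 2.32e-11).

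GSTA4, which conjugates the lipid peroxidation product hydroxynonenal, and GSTZ1, an enzyme of tyrosine breakdown, were the 2 that rose. GSTA4 stood at 22.3, 22.8 and 24.8 CPM in young and at 33.1, 31.5 and 30 CPM in quiescent libraries (log2 fold change 0.43 ± 0.06, edgeR adjusted p = 4.27e-07), and GSTZ1 had 0.51 ± 0.10 (edgeR adjusted p = 8.91e-05). MGST3 fell by 0.27 and the mitochondrial and peroxisomal GSTK1 by 0.28, but with library size alone neither was called (adjusted p = 0.104 and 0.0574). GSTO1, second to GSTP1 in level per length in young cells at 99.2 RPKM, overlapped between groups (0.09 ± 0.04, edgeR adjusted p = 0.0684) and was called higher without the young library at 181 CPM (adjusted p = 0.00013), and GSTO2 and MGST2 were not called (edgeR adjusted p = 0.161 and 0.2).

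**Figure D4:**
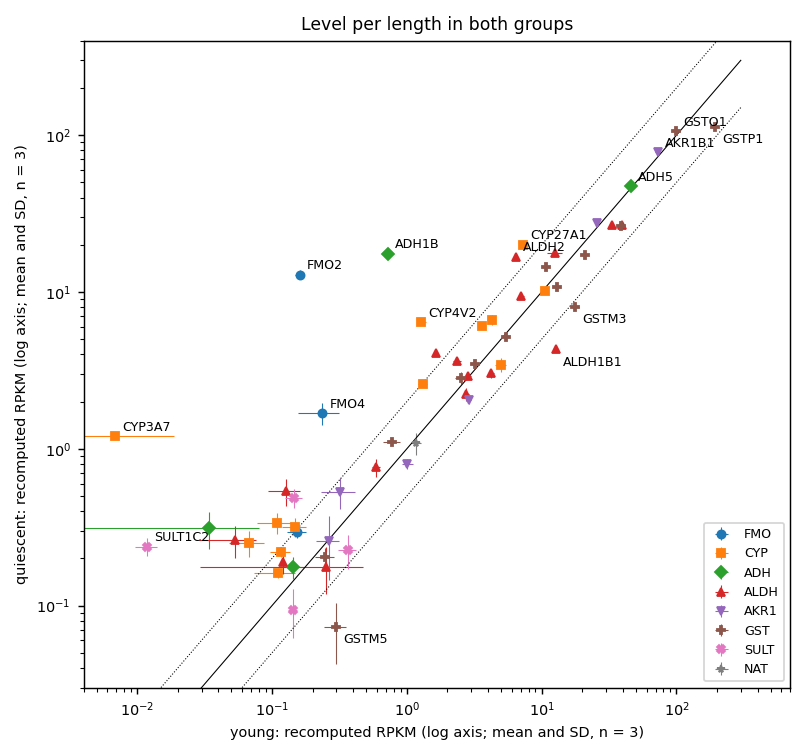
Mean level per kilobase of exon (recomputed RPKM, log axes, bars SD over 3 libraries) of the tested enzyme genes reported here in quiescent against young cells, with the solid line at equality and dotted lines at 2-fold. FMO2 and ADH1B lie far above the line from levels below 1 RPKM in young cells, while GSTP1 at 194 and 113 RPKM lies below it; an error bar that reaches the left edge has a lower end at or below 0.

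The remaining conjugating enzymes were scarce. No UGT gene could be tested: 18 of 19 were listed at 0 and UGT2B7, a glucuronidating enzyme of liver, had 12 reads in all. The 9 UGT1A genes share 40.6% to 80.0% of their exon bases with each other, and reads in shared exons may have been dropped by the counting, so a 0 there does not show that the locus is silent. Of 12 SULT genes, 4 were tested. SULT1C2 stood at 0.0787, 0.111 and 0.108 CPM in young and at 2.28, 1.93 and 1.76 CPM in quiescent libraries, 19-fold higher (log2 fold change 4.25 ± 0.34, edgeR adjusted p = 2.52e-11). Its chromosome 2 neighbour SULT1C4 stood at 0.354, 0.481 and 0.431 CPM against 1.4, 1.59 and 1.21 CPM (log2 fold change 1.73 ± 0.27, edgeR adjusted p = 3.61e-06). Both are sulfotransferases known from fetal tissues.

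SULT1A1, the main phenol sulfotransferase of liver, stood at 1.38, 1.26 and 1.18 CPM in young and at 1.16, 0.755 and 0.605 CPM in quiescent libraries. It was called lower (log2 fold change -0.59 ± 0.26, edgeR adjusted p = 0.041), but not with DESeq2 (adjusted p = 0.133) or library size alone (adjusted p = 0.148). The call was also lost without quiescent library 2 (adjusted p = 0.139) or 3 (0.198), or without the young library at 1.38 CPM (0.106) or 1.26 CPM (0.0612). SULT1A3 and SULT1A4, which are copies of each other, were listed at 0 and share 70.7% and 85.2% of their exon bases with other genes. SULT4A1, a brain form with no settled substrate, was called at -0.69 ± 0.28 (edgeR adjusted p = 0.029) and not with DESeq2 (adjusted p = 0.119), library size alone (adjusted p = 0.101), without quiescent library 2 (adjusted p = 0.187) or without the young library at 1.22 CPM (adjusted p = 0.114). NAT1, which acetylates arylamines, overlapped between groups at 3.51 to 4.09 CPM and 2.81 to 3.86 CPM (edgeR adjusted p = 0.553), and NAT2 had 7 reads.

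The stretch before the gene's start is shown for ADH1B, FMO4 and CYP4V2, each of which rose at least 5-fold, and for ALDH1B1, the ALDH gene that fell the most. The sequences are from RefSeq on GRCh38.p14 and run 250 bases up to the annotated start. Capitals mark letters that match a motif searched on both strands.

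ADH1B: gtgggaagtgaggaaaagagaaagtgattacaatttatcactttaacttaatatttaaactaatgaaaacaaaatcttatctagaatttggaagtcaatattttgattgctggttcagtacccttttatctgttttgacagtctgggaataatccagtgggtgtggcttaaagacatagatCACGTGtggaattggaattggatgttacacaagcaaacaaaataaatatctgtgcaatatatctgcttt
FMO4: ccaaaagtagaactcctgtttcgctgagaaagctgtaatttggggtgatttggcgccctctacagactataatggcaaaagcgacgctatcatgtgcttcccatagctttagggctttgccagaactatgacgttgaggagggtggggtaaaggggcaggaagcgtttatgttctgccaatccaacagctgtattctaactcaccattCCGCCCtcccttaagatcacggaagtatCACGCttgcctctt
CYP4V2: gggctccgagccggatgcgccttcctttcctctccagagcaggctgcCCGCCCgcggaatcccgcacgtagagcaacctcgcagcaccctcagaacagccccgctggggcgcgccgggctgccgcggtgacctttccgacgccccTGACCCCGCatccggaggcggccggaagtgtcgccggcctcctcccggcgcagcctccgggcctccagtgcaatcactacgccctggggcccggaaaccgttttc
ALDH1B1: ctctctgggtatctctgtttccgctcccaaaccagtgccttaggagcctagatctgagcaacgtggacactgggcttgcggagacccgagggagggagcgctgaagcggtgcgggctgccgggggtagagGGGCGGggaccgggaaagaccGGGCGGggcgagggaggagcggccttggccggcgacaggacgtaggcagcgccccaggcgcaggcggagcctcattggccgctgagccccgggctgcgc

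The ADH1B stretch is chr4:99321402-99321651 on the minus strand, the FMO4 stretch chr1:171313933-171314182, the CYP4V2 stretch chr4:186191317-186191566 and the ALDH1B1 stretch chr9:38392452-38392701, the last 3 on the plus strand. The RefSeq start of ADH1B lies inside the span that GENCODE 29 gives the gene. The motifs searched were the TATA box (TATAAA), the GC box bound by SP factors (GGGCGG), the core of the aryl hydrocarbon receptor element (GCGTG), the antioxidant element (TGACNNNGC), the AP-1 site (TGANTCA), the forkhead site (GTAAACA) and the E-box (CACGTG). ADH1B is 32.4% GC and holds 1 E-box, a sequence that reads the same on both strands. FMO4 is 48.4% GC with 1 GC box and 1 receptor core, CYP4V2 is 72% GC with 1 GC box and 1 antioxidant element, and ALDH1B1 is 70.4% GC with 2 GC boxes. Such matches are letters in a window and not shown sites.

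Over windows of 300 bases that also hold the first 50 bases of the gene, 49 of the 61 tested enzyme genes had an entry. Those without one include FMO2, ALDH2, CYP27B1, CYP1B1, ALDH16A1, ALDH1L2, AKR1B10, MGST2, SULT1A1, SULT4A1 and NAT1. The median GC content was 54% in the 13 that were at least 2-fold higher, 69.3% in the 3 that were at least 2-fold lower, 63.3% in the other 33 and 58.3% in all 27305 promoters of the table. Among the 13, 4 held a TATA box (12% of all promoters), 4 a GC box (44.6%), 3 a receptor core (36.3%), 2 an antioxidant element (13.6%), 1 an AP-1 site (7.76%), 1 an E-box (7.43%) and none a forkhead site (3.41%). With so few genes these counts are a description and no more.

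Proteins that supply, sense and complement these enzymes were read from the same fit. Of 107 companion genes in 6 lists, 82 were tested, and 30 were higher, 35 lower and 17 not called, with a median log2 fold change of -0.06. That is 36.6% higher and 42.7% lower, beside the 34.8% and 36.3% of all genes. Of the 82, 5 were at least 2-fold higher (6.1%) and 7 at least 2-fold lower (8.54%), beside 8.98% and 8.33% of all genes.

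Among 21 tested electron donors and cofactor suppliers, 13 were lower (61.9%, beside 36.3% of all genes) and 5 higher (23.8%, beside 34.8%), none by 2-fold. POR, the reductase that feeds electrons to the microsomal P450s, stood at 62.7, 60.1 and 60.7 CPM in young and at 85.7, 87.8 and 98.3 CPM in quiescent libraries (log2 fold change 0.57 ± 0.05, edgeR adjusted p = 1.2e-10). BPNT1, a phosphatase that removes the by-product of sulfation, fell by 0.73 (SE 0.06, edgeR adjusted p = 1.17e-10). Among 17 tested sensors and regulators, 7 were higher (41.2%) and 5 lower (29.4%). AHR, the aryl hydrocarbon receptor, stood at 43.7, 44.0 and 41.8 CPM in young and at 41.6, 39.5 and 42.1 CPM in quiescent libraries, with a log2 fold change of -0.07 ± 0.05 (edgeR adjusted p = 0.188). TIPARP, a target and repressor of AHR, fell from 108, 111 and 110 CPM to 29.6, 28.3 and 29.8 CPM, 3.76-fold lower (edgeR adjusted p = 3.16e-22). NFE2L2, the factor of the antioxidant response, rose by 0.32 ± 0.04 in log2, and the nuclear receptor PPARG fell by 0.63 (SE 0.04).

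Among 9 tested genes of retinoid handling, 5 were higher (55.6%, beside 34.8% of all genes). CRABP2 alone was lower (11.1%, beside 36.3%), and a list this short is only described. DHRS3, which turns retinal back into retinol, stood at 3.27, 3.22 and 2.69 CPM in young and at 16.2, 16.2 and 16.0 CPM in quiescent libraries, 5.28-fold higher (edgeR adjusted p = 1.49e-17). CRABP2, which carries retinoic acid to its nuclear receptor, fell from 20.4, 21.1 and 20.8 CPM to 4.17, 4.36 and 3.43 CPM, 5.17-fold lower (edgeR adjusted p = 3.93e-18). The groups lay apart in both genes.

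Among 18 tested hydrolases and other oxidoreductases, 7 were higher (38.9%, beside 34.8% of all genes) and 9 lower (50%, beside 36.3%). XDH, the xanthine oxidoreductase, fell by 2.95 (SE 0.29, edgeR adjusted p = 1.55e-09), and HSD11B1, which regenerates cortisol, rose from 5.51, 5.29 and 5.38 CPM to 25.7, 28.3 and 27.9 CPM (log2 fold change 2.34 ± 0.08, edgeR adjusted p = 1.8e-19). A further pair was named after their values were seen: AOX1, the aldehyde oxidase, fell by 2.18 (SE 0.06), and NQO1, the quinone reductase that NFE2L2 and AHR are known to induce, stood at 515, 509 and 539 CPM in young and 200, 216 and 218 CPM in quiescent libraries, 2.47-fold lower (edgeR adjusted p = 1.91e-19). Of 6 tested methyl and other transferases, 1 was higher (16.7%) and 3 were lower (50%). HNMT, which inactivates histamine, rose by 1.44 ± 0.05 in log2. INMT, an indole methyltransferase known from lung, fell by 2.09 (SE 0.12). Of 11 tested transporters, 5 were higher (45.5%) and 4 lower (36.4%). Among them were the conjugate pump ABCC2 (0.96 ± 0.26) and ABCC9, a subunit of a potassium channel (-1.71 ± 0.21).

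**Figure D5:**
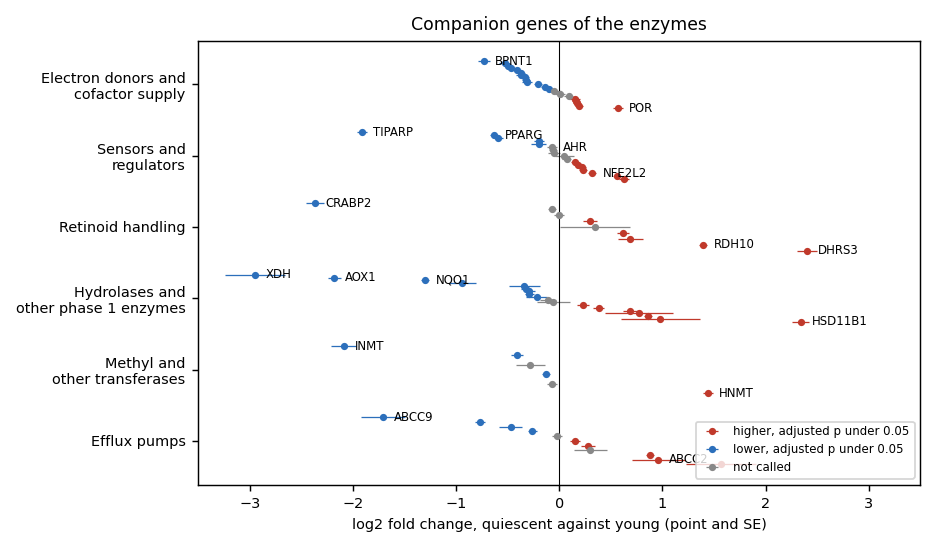
Log2 fold change (point, with SE) of each tested companion gene, quiescent against young, in 6 lists, with called genes in red and blue and genes not called in grey. Calls lie on both sides of 0 in every list, 30 higher and 35 lower in all.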

How the data were processed

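The 150 enzyme genes, the companion lists and the markers were chosen with earlier results of these data known. Libraries were prepared from total RNA with Illumina's TruSeq RNA kit, version v2, per the labels' protocols; this kit does not mark strand. The submitters' processing notes name featureCounts 1.4.6-p4, STAR 2.4.1d, bcl2fastq 1.8.4 and the GRCh38 build. For the annotation release and for reads that match several genes, the choice is not given in the sources used here.

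The authors deposited raw counts per gene, not normalised, and RPKM values for the same genes. The quiescent columns carry their sample titles. The 3 young columns carry another shared name and were assigned to the group only. The deposited RPKM were not used for levels. Over 1953 genes with more than 2000 reads in every library, the read total implied by count, RPKM and GENCODE 29 exon length matched a pattern that recurs every 15 gene rows in young and every 14 in quiescent columns for 88.5% of genes (within 0.1%), and the library's own total for 5.43% to 6.61%. The implied totals ranged from 25970104 to 41540637 in young and from 18661612 to 33685833 in quiescent columns. This shifts the log2 difference between groups by -0.81 (FMO2) to 0.32 (ALDH18A1). Levels per length were therefore recomputed from the counts, as TMM-scaled CPM per kilobase of merged GENCODE 29 exons, in place of the deposited RPKM first planned.

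Symbols, coordinates and gene types were taken from GENCODE 29, which held 57055 of the 60675 identifiers. The test was edgeR 4.0.16 under R 4.3.3 on the counts (filterByExpr with a minimum count of 10, TMM factors, robust glmQLFit, glmQLFTest, group as the only term). Benjamini-Hochberg adjustment covered 15568 genes. Every adjusted p without another tool named is from this test. The biological coefficient of variation was 3.84%. The ratios of FMO1, CYP3A7, CYP1A1 and CYP19A1 carry exact binomial 95% intervals, for counting error alone, as no molecular identifiers were used. The same intervals for CYP26A1 (0.215 to 22.4), CYP26C1 (0.0362 to 1.87) and NAT2 (0.909 to 345), given above as reads only, include 1. That for ADH1C (1.12 to 5.98), also given as reads only, does not include 1.

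Genes named with values were those called at least 2-fold, the most abundant per length of each class, all FMO, ALDH1A and CYP26 genes, CYP1A1, CYP1B1, POR, AHR, NFE2L2 and the 2 largest called changes of each companion list at a mean of at least 1 CPM. A gene that the rule names enters the counts and is not reported here. Alternatives were DESeq2 1.42.0 size factors or its Wald test, library size alone, no filter, CPM of at least 1 in 3 libraries, limma 3.58.1 on log2 of the deposited RPKM with 1 or 0.1 added, each library left out in turn and, chosen after the data were seen, limma on recomputed RPKM with 0.1 added. The split at a mean of 1 CPM was also chosen after the data were seen.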

Additional observations from a re-analysis of the deposited data

How the results depend on the processing

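The 20 enzyme genes that changed at least 2-fold were called in the same direction under every alternative that gave them a value. With each library left out in turn, 30 to 36 enzyme genes were higher and 13 to 16 lower. The shares of all genes called under the alternatives are not given here, so such counts show only how the calls moved. The count at least 2-fold higher was 6 with limma on the deposited RPKM with 1 added, where the added value shrinks low genes, and companion genes called higher numbered 14 with 0.1 and 12 with 1 added. The median log2 fold change of the tested enzyme genes was 0.16 with CPM of at least 1 in 3 libraries, which tests fewer genes, 0.54 with library size alone, and 0.22 and 0.06 on the deposited RPKM with 0.1 and 1 added. On the deposited RPKM, with 0.1 and 1 added, values changed sign for AKR1A1 (-0.21 and -0.20), GSTM2 (0.35 and 0.30), ADH5 (-0.54 and -0.53) and AKR1B1 (-0.04 and -0.04), and with library size alone for CYP1B1 (0.13). With 0.1 and 1 added, respectively, calls were also lost for FMO5 (adjusted p = 0.215 and 0.223), CYP20A1 (0.0759 and 0.0856), CYP3A5 (0.0502 and 0.0658), GSTK1 (0.116 and 0.116), MGST1 (0.0928 and 0.104), ALDH18A1 (0.873 and 0.881), ALDH6A1 (0.631 and 0.66) and ALDH1A3 (0.406 and 0.367), and for ALDH1A2 with 1 added (0.0559). Those deposited values carry the recurring totals described with the processing. Young libraries were deeper, so low genes are bounded less tightly in quiescent ones. No paired analysis was possible because the young columns carry no sample number. Summed families were not run on RPKM.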
